A study of Mus musculus with 23 samples.

Results

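The genes described here carry GABA signalling in the mouse hippocampus and mark the interneurons that release it. The set holds 30 of the 13766 genes in the deposited table, chosen by gene symbol, and each of the 30 matched 1 row. They comprise 9 GABA-A receptor subunits, 2 GABA-B receptor subunits, 5 genes of GABA synthesis, vesicle loading, uptake and breakdown, 2 genes of the inhibitory postsynapse, 2 chloride transporters and 10 genes used as interneuron markers. The study measured RNA from hippocampi of FCG (core genotypes) mice of C57Bl/6J background, aged about 12 months. In these mice the testis-determining gene Sry has been moved from the Y chromosome to an autosome, so that sex chromosomes and gonads vary separately. The groups were XX mice with ovaries (XXF, n = 5), XX mice with testes (XXM, n = 6), XY mice with ovaries (XYF, n = 6) and XY mice with testes (XYM, n = 6). No further treatment is named, the stock had been revived from frozen embryos, and pups were caged by external genitalia. Each library was 1 animal, and hippocampus is a mixture of cells, so fewer cells of a type and less RNA per cell cannot be told apart.

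GABA is the main inhibitory transmitter of the forebrain. It is made from glutamate by the decarboxylases Gad1 and Gad2, loaded into vesicles by Slc32a1, and acts on chloride channels (GABA-A receptors, pentamers drawn from alpha, beta, gamma, delta and other subunits) and on the G protein-coupled GABA-B receptor, which needs both Gabbr1 and Gabbr2. Hippocampal interneurons are few beside the pyramidal and granule cells and are told apart by peptides and calcium-binding proteins such as somatostatin, parvalbumin and VIP. Most receptor subunits, in contrast, are made by the principal neurons that interneurons contact.

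The 23 libraries held between 10257790 and 36078235 estimated reads each. Xist, the X inactivation transcript, stood at 936 to 1468 CPM (counts scaled to a library of 1000000) in the 11 XX libraries and at most at 2.87 CPM in 11 of the 12 XY libraries. XYF replicate 4 stood apart at 94.1 CPM. Replicate numbers follow accession order and only name libraries. The 12 markers of excitatory hippocampal neurons were all detected, summing to 2216 to 2734 CPM, as the tissue label states. Summed markers of choroid plexus ran from 292.6 to 5894 CPM, and 10 interferon response genes summed to 91.0 to 159.6 CPM in XYF against 51.4 to 97.9 CPM in the other 3 groups. The lowest estimated count of any of the 30 genes in any library was 32 reads, so counting noise was small for nearly all of them.

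Levels were compared between genes per kilobase of exon (CPM per kb, mean ± SD over all 23 libraries), since longer transcripts give more reads. Among the 9 GABA-A subunits of the set Gabra5, the alpha 5 subunit, which mediates tonic inhibition in hippocampal pyramidal cells, had the highest level, at 81.7 ± 7.60 CPM per kb. The beta 2 subunit Gabrb2 followed at 67.4 ± 5.80 CPM per kb. Their ranges over the libraries overlapped.

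The other subunits of the set formed a staircase below these. Gabra4, which pairs with the delta subunit in dentate granule cells, stood at 29.9 ± 2.28 CPM per kb and exceeded Gabra3 (24.7 ± 2.42) in 22 of 23 libraries. The delta subunit Gabrd itself stood at 14.8 ± 2.41 CPM per kb and Gabra2 at 10.6 ± 2.34 CPM per kb. Gabrg1 (5.87 ± 0.773 CPM per kb), Gabrb1 (2.45 ± 0.491) and Gabrg3 (0.392 ± 0.0823) were lowest, and their ranges over the libraries were separate from one another. Both GABA-B subunits were well expressed, Gabbr1 at 107 CPM per kb and Gabbr2 at 39.6 CPM per kb. These levels depend on the exon model: per kilobase of coding sequence Gabrb2 (180 CPM per kb) was above Gabra5 (175 CPM per kb), and only 5 of the 30 genes kept their position.

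**Figure D1:**
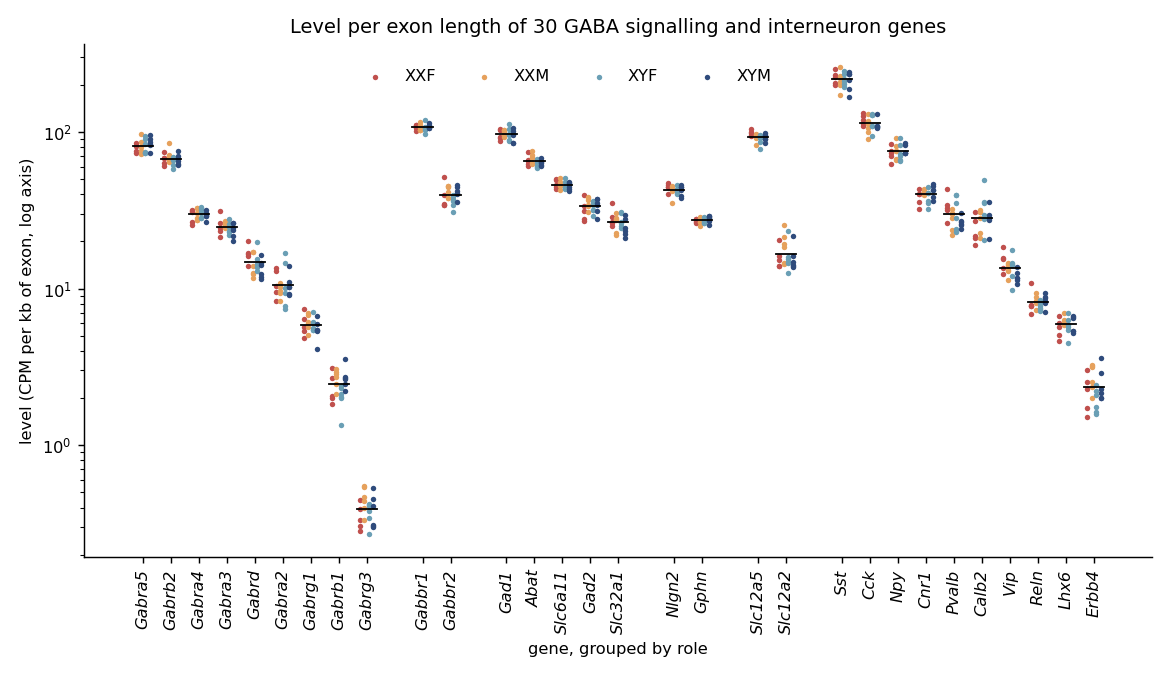
Level of each gene in each library, in CPM per kilobase of exon on a log axis, with genes grouped by role and ordered by level within a role. Points are the 23 libraries coloured by group and black bars are means over all libraries. Sst is the highest of the 30 genes at 216 CPM per kb and Gabrg3 the lowest at 0.392, and the 4 groups overlap for every gene.

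Among the genes that make, move and remove GABA, Gad1 stood at 96.9 CPM per kb and Gad2 at 33.5 CPM per kb. Abat, the transaminase that degrades GABA, stood at 65.0 CPM per kb, the astrocyte GABA transporter Slc6a11 at 45.9 CPM per kb and the vesicular transporter Slc32a1 at 26.6 CPM per kb. The postsynaptic adhesion protein Nlgn2 (42.7 CPM per kb) and the receptor scaffold Gphn (27.3 CPM per kb) were close to these. Of the chloride transporters, the neuronal extruder Slc12a5 (93.1 CPM per kb) was far above the importer Slc12a2 (16.7 CPM per kb), the order known for adult brain.

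Among interneuron markers Sst was highest, at 216 ± 23.6 CPM per kb, with a range that met that of no other marker in the set. Cck (114 ± 12.0 CPM per kb) and Npy (75.3 ± 7.96 CPM per kb) followed. Pyramidal cells also make Cck, so its level is not that of Cck interneurons alone. The cannabinoid receptor Cnr1, carried by Cck basket cells and by excitatory terminals, stood at 40.0 ± 3.84 CPM per kb. Pvalb, the calcium buffer of fast-spiking basket cells, stood at 29.7 ± 5.77 and Calb2 (calretinin) at 28.3 ± 6.74 CPM per kb. Pvalb exceeded Calb2 in 11 of 23 libraries, so they did not differ beyond their spread. Vip (13.5 CPM per kb), Reln (8.17), the transcription factor Lhx6 of interneurons from the medial ganglionic eminence (5.90) and the neuregulin receptor Erbb4 (2.36) were lowest.

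Several neuropeptide genes of interneurons are textbook targets of CREB, a factor that binds the palindrome TGACGTCA or its shorter form TGACG. The 100 bases upstream of the RefSeq start (build GRCm38.p6) are shown for the neuropeptide genes of the set in which such letters lie there. Capitals mark TGACGTCA in Sst, TGACG in Vip and, in Cck, CGTCA, which is TGACG read on the other strand.
Sst, chr16:23890845-23890944, minus strand: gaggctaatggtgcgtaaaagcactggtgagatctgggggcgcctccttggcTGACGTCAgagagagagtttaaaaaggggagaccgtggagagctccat
Vip, chr10:5639118-5639217, plus strand: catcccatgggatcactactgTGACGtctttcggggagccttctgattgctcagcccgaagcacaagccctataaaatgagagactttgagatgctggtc
Cck, chr9:121495695-121495794, minus strand: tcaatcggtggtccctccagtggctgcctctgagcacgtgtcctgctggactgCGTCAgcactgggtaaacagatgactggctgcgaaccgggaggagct
In windows of 300 bases around gene starts, TGACGTCA occurred in 1.79% of 32851 windows and, among 26 of the 30 genes with a window, in Sst alone. TGACG on either strand, which also lies inside the palindrome, occurred in 20.8% of windows and in 6 genes of the set, Cck, Gabrb2, Gad2, Nlgn2, Sst and Vip. These matches describe letters and were not tied to binding in these samples.

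The 30 genes differed widely in how steady they were between animals. Gphn and Gabbr1 varied least, with coefficients of variation over 23 libraries of 4.09% and 4.62%. Erbb4 (25.0%), Calb2 (23.8%), Gabra2 (22.1%), Slc12a2 (21.1%), Gabrg3 (21.0%), Gabrb1 (20.1%) and Pvalb (19.4%) varied most. For Gabra2 and Slc12a2 the spread had a structure that did not follow the 4 groups, and these are given first.

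Gabra2 (gene identifier 14395, chr5:70961057-71095849 in mm10) encodes an alpha subunit enriched at synapses on the axon initial segment. In the 5 animals with the lowest animal numbers its level was 81.0 CPM (XYM, number 292), 99.3 CPM (XYF, 295), 75.9 CPM (XXF, 296), 85.1 CPM (XYF, 297) and 79.5 CPM (XXF, 298). In the other 18 animals, numbered 301 to 326, it ran from 43.1 to 64.6 CPM with a median of 56.2 CPM. The 5 animals came from 3 of the 4 groups, XXM having none, and their values did not overlap with the rest. The break was chosen from the Gabra2 values, so it was given no test. Over all genes, 17 of 13766 (0.123%) were as cleanly separated between these animals, and Gabra2 was the 1 gene of the set among them.

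No other gene of the set separated without overlap at this break, but some were shifted. Gad1 stood at 369 to 401 CPM in the 5 animals and at 373 to 490 CPM in the other 18, with overlapping ranges. Gad2 stood at 154.7 to 180.9 against 177.5 to 226.2 CPM, and Abat at 313.4 to 332.9 against 320.1 to 403.1 CPM. Both were picked after their values were seen. Outside the set, Nnt, Wdfy1 and Entpd4 were named after their values were seen, from a scan of all genes for those that follow Gabra2. Their separation follows from that choice and is only described. Nnt stood at 32.2 to 38.2 against 19.6 to 27.8 CPM and Wdfy1 at 39.0 to 44.5 against 15.6 to 25.1 CPM. Entpd4 went the other way, at 106 to 124 against 134 to 173 CPM. As background, C57BL/6J mice are known to carry a deletion in Nnt and an intronic variant that lowers Gabra2, both absent from the C57BL/6N substrain. Whether the animals differed in substrain background was not tested. The 5 animals hold the highest Gabra2 values and mostly have ovaries. Leaving them out therefore narrows its spread and raises its gonad estimate by construction, and no p is given for it. Without them the coefficient of variation of Gabra2 was 11.1%. Its gonad difference (testes minus ovaries) moved from -0.11 ± 0.117 on the log2 scale (estimate ± SE, edgeR, adjusted p = 0.711) to 0.13. Its sex chromosome difference (XY minus XX) moved from 0.07 ± 0.117 (edgeR, adjusted p = 0.962) to -0.05.

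**Figure D2:**
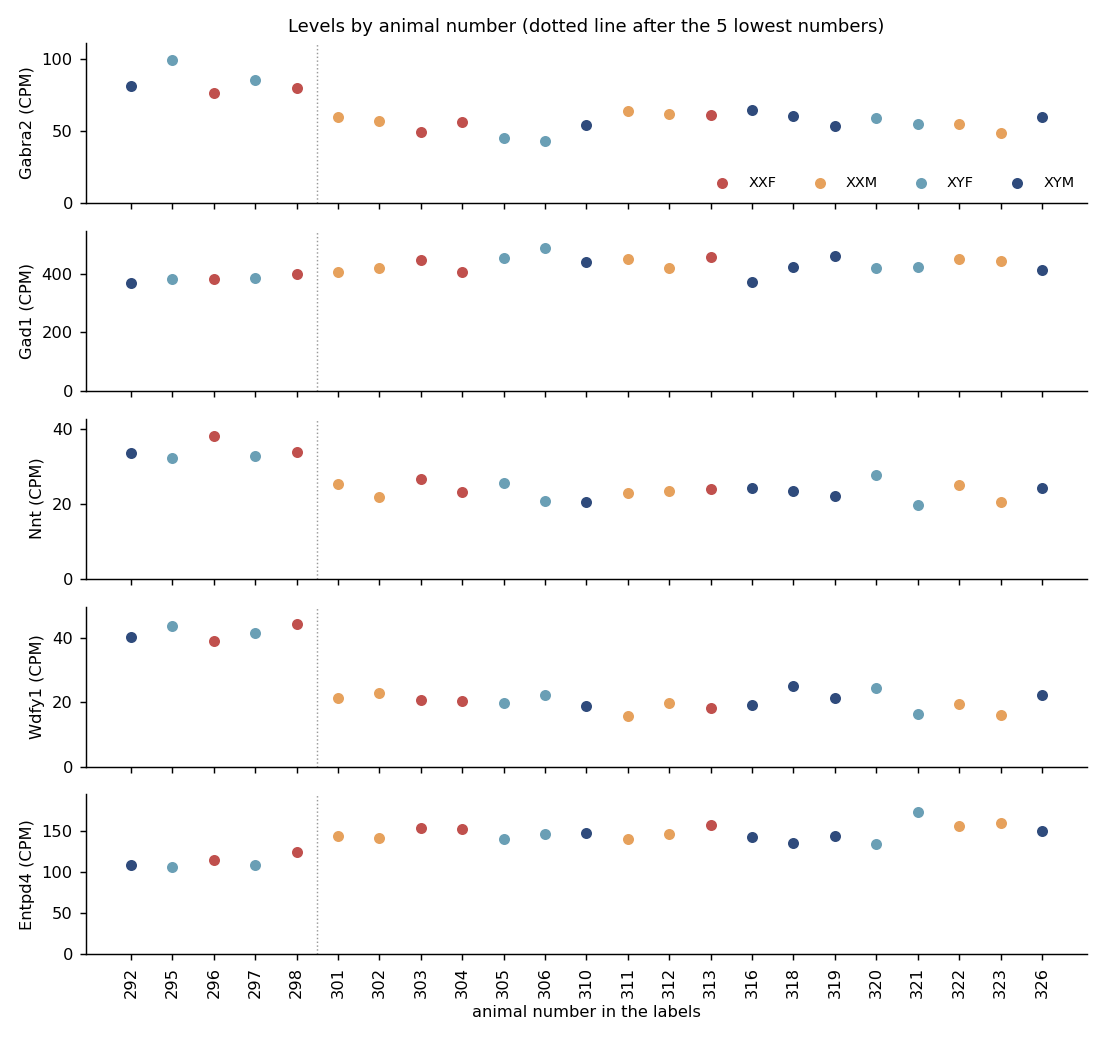
Levels of Gabra2, Gad1, Nnt, Wdfy1 and Entpd4 (CPM) in each of the 23 libraries, ordered by the animal number in the labels. Points are coloured by group and the dotted line follows the 5 lowest numbers, where Gabra2 is 75.9 to 99.3 CPM against 43.1 to 64.6 CPM to its right.

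Slc12a2 (gene identifier 20496), the sodium, potassium and chloride cotransporter NKCC1, is also highly expressed in choroid plexus. Summed choroid plexus markers fell into separate ranges, 3334 to 5894 CPM in 7 libraries (4 of them XXM, and 1 in each other group) and 292.6 to 576.9 CPM in 16. Slc12a2 stood at 121 to 166 CPM (median 139.7) in the 7 libraries and at 82.2 to 105 CPM (median 94.9) in the 16, so its values did not overlap between them. The libraries were divided at the widest gap of the summed markers. The share of all genes that separate there was not measured, so how unusual this is cannot be told. The XXM animals had the highest group mean, 123 ± 27.7 CPM (SD, n = 6), against 104 ± 17.4 in XXF, 105 ± 23.9 in XYF and 103 ± 19.9 in XYM. In XYM minus XXM, where Slc12a2 had the smallest p of the set, the difference was -0.26 ± 0.145 on the log2 scale (edgeR, unadjusted p = 0.0797, adjusted p = 0.93). Without XXM replicate 3 it was -0.16, and with the choroid plexus level as a covariate it was 0.05.

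The comparison of sex chromosomes asked whether XX and XY hippocampi differ at equal gonads. None of the 30 genes passed an adjusted p of 0.05 (edgeR quasi-likelihood test, Benjamini-Hochberg over 13766 genes), where 0.283% of all genes did (39 genes). At an unadjusted p of 0.05, 2 of 30 passed, 1 in each direction, and 6.78% of all genes did (3.37% higher and 3.41% lower). The estimates were small: 22 were negative and 8 positive, with a median of -0.04 on the log2 scale against 0.00 over all genes. The genes share libraries and are not independent, so this count of directions is a description and was not tested. Every 95% interval lay within 0.5 of zero on the log2 scale, the widest reach being 0.489 for Calb2 and the tightest interval that of Gphn, from -0.0454 to 0.0834. For Gad1 the interval was -0.113 to 0.0783, for Sst -0.149 to 0.120 and for Gabbr1 -0.0604 to 0.0775. These bounds limit the size of a difference and do not show equality.

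Calb2 had the smallest p. The calcium-binding protein calretinin marks a class of interneurons and also mossy cells in the mouse dentate hilus. Its level ran from 35.3 to 85.3 CPM in XYF (median 56.1) and from 36.3 to 62.0 CPM in XYM (median 49.4). In the XX groups it ran from 36.6 to 54.9 CPM in XXM (median 51.0) and was 36.7, 32.9, 37.9, 47.0 and 53.8 CPM in the 5 XXF animals. The ranges overlapped in every pair of groups, and the top value was XYF replicate 6. The difference was 0.25 ± 0.115 on the log2 scale (edgeR, unadjusted p = 0.0378, adjusted p = 0.694), and 0.17 without XYF replicate 6. With limma and quality weights, which give divergent libraries less weight, it was 0.11.

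Abat was the gene lower in XY at an unadjusted p under the threshold. It stood at 332.9, 319.9, 344.2, 348.9 and 396.9 CPM in XXF, and at 329.9 to 403.1 (median 363.3) in XXM. XYF ran from 313.4 to 354.0 (median 328.9) and XYM from 320.1 to 361.4 CPM (median 336.8). The groups overlapped, but the highest animal of each XX group was above every XY animal. The difference was -0.09 ± 0.0398 on the log2 scale (edgeR, unadjusted p = 0.0382, adjusted p = 0.696). Vip, the third by p, differed by -0.16 ± 0.0787 (edgeR, unadjusted p = 0.0594, adjusted p = 0.759). Gabra3, the X-linked member of the set (chrX:72432676-72656246 in mm10), differed by -0.08 with an interval of -0.198 to 0.0333. It stood at 97.6 ± 14.8 CPM in XXF, 99.0 ± 3.54 in XXM, 94.4 ± 8.20 in XYF and 91.4 ± 9.52 in XYM, with overlapping ranges.

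**Figure D3:**
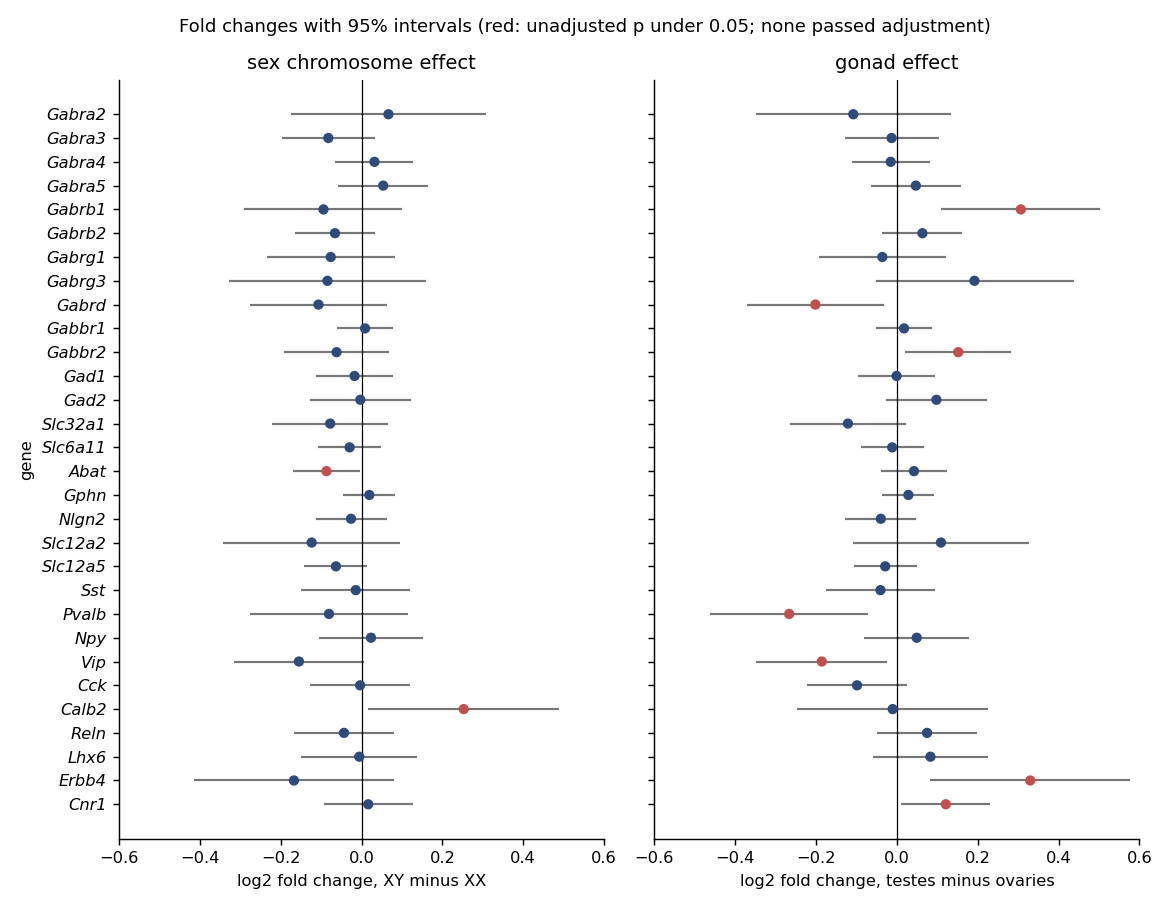
Log2 fold change of each of the 30 genes for the sex chromosome effect (XY minus XX, left) and the gonad effect (testes minus ovaries, right), from the edgeR fit over all 23 libraries. Points are estimates, lines are 95% intervals and red marks an unadjusted p under 0.05: 2 genes on the left and 7 on the right, of which none passed adjustment.

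The comparison of gonads asked whether mice with testes and mice with ovaries differ at equal sex chromosomes. Again none of the 30 genes passed adjustment, where 0.16% of all genes did (22 genes). At an unadjusted p of 0.05, 7 of 30 passed, where 13.6% of all genes did. The 4 higher with testes were Gabrb1, Erbb4, Gabbr2 and Cnr1 (background for higher 6.49%), and the 3 lower were Pvalb, Gabrd and Vip (background for lower 7.14%). Over the whole set 15 estimates were positive and 15 negative, with a median of 0.01 on the log2 scale against 0.00 for all genes.

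Gabrb1 (gene identifier 14400, chr5:71700016-72137244 in mm10), a beta subunit of low level in hippocampus, had the smallest p of the set. It stood at 28.4, 25.1, 27.6, 36.6 and 42.3 CPM in XXF and from 18.4 to 32.9 CPM (median 28.4) in XYF. With testes it ran from 29.3 to 42.2 CPM (median 38.3) in XXM and from 30.5 to 48.7 CPM (median 36.7) in XYM. Most testis libraries were above most ovary libraries, but the ranges overlapped. The difference was 0.31 ± 0.0953 on the log2 scale, with an interval of 0.110 to 0.503 (edgeR, unadjusted p = 0.0035, adjusted p = 0.193). Without XYF replicate 4, the lowest library and the XY library with raised Xist, it was 0.26 (edgeR, adjusted p = 0.264).

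Erbb4 (gene identifier 13869, chr1:68039966-69108059 in mm10) is expressed mainly by interneurons, where neuregulins signal through it. Its level was 20.9, 18.2, 27.5, 30.4 and 36.6 CPM in XXF and 19.03 to 29.3 CPM (median 23.3) in XYF. It ran from 24.2 to 39.3 CPM (median 34.4) in XXM and from 24.1 to 43.4 CPM (median 26.9) in XYM. The XYM median rested near the ovary groups, with XYM replicate 2 at the top. The difference was 0.33 ± 0.120 (log2; edgeR, unadjusted p = 0.0107, adjusted p = 0.243).

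The remaining higher genes were the GABA-B subunit Gabbr2 and Cnr1. Gabbr2 (gene identifier 242425) stood at 197.7, 199.4, 196.4, 226.2 and 297.7 CPM in XXF, with replicate 5 far above the other 4. It ran from 175.9 to 226.7 in XYF (median 211.4), 216.9 to 259.2 in XXM (median 246.8) and 204.4 to 262.4 CPM in XYM (median 237.2). The difference was 0.15 ± 0.0635 (log2; edgeR, unadjusted p = 0.0246, adjusted p = 0.299). Without XXF replicate 5 it was 0.21 with an adjusted p of 0.0482 (edgeR), the sole setting in which any of the 30 genes passed, and the count of all genes called rose from 22 to 85. Gabbr1, its obligate partner, differed by 0.02 with an interval of -0.0514 to 0.0864. Cnr1 differed by 0.12 ± 0.0536 (log2; edgeR, unadjusted p = 0.0328, adjusted p = 0.327), its medians being 251.2 CPM in XXF, 243.2 in XYF, 259.2 in XXM and 268.7 in XYM.

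Among the lower genes, Pvalb (gene identifier 19293, chr15:78191118-78206351 in mm10) stood at 33.1, 33.9, 45.1, 35.5 and 27.1 CPM in XXF and 23.9 to 41.4 CPM (median 32.8) in XYF. It ran from 22.7 to 33.6 CPM (median 30.4) in XXM and from 24.8 to 31.6 CPM (median 27.3) in XYM. No testis library exceeded 33.7 CPM, while 3 XXF and 3 XYF libraries did. The difference was -0.27 ± 0.0950 on the log2 scale (edgeR, unadjusted p = 0.0094, adjusted p = 0.235).

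Gabrd, the delta subunit of extrasynaptic receptors sensitive to neurosteroids, was 32.3, 38.5, 31.2, 32.1 and 26.7 CPM in XXF and 25.0 to 37.8 CPM (median 27.1) in XYF. It ran from 22.4 to 32.8 CPM (median 25.5) in XXM and from 22.1 to 31.6 CPM (median 25.5) in XYM. The groups overlapped, and the difference was -0.20 ± 0.0824 (log2; edgeR, unadjusted p = 0.0214, adjusted p = 0.29). Its usual partner Gabra4 differed by -0.02 in the same contrast. Vip was lowest in XYM, at 16.4 to 21.0 CPM (median 17.8), and differed by -0.19 ± 0.0787 (log2; edgeR, unadjusted p = 0.0259, adjusted p = 0.302).

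**Figure D4:**
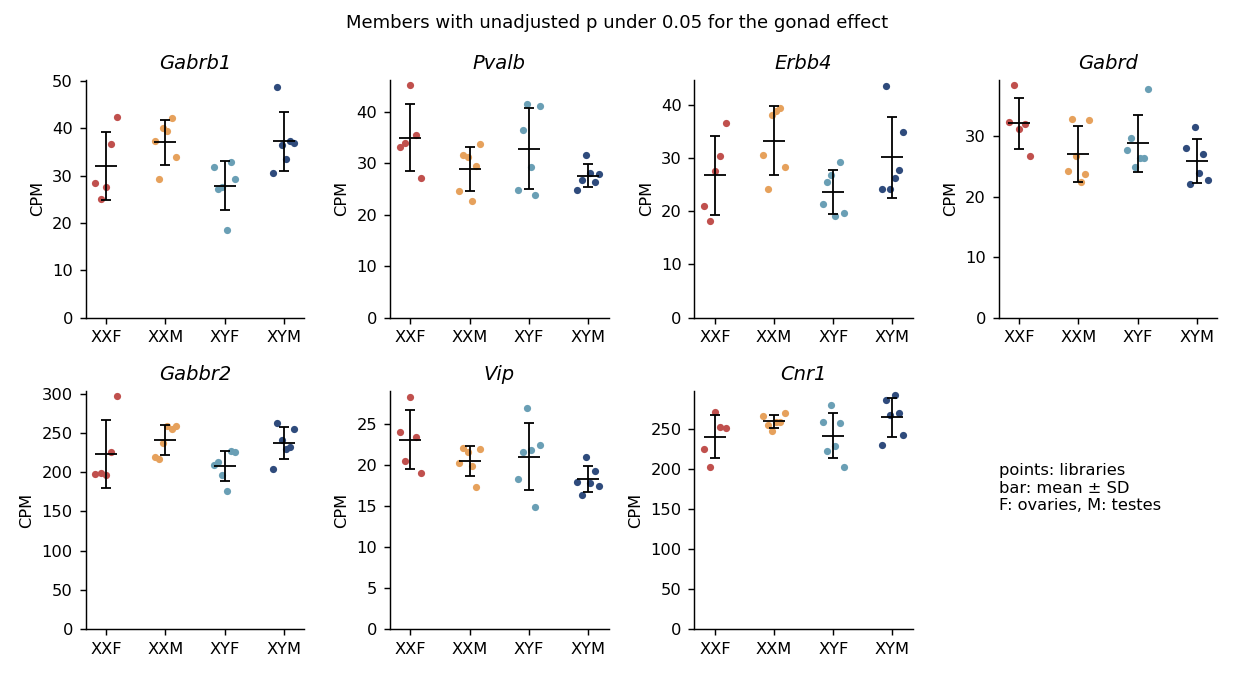
CPM in each library of the 7 genes with an unadjusted p under 0.05 for the gonad effect, by group, on axes that start at 0. Points are libraries and bars are mean ± SD (n = 5 in XXF, 6 in the others). The testis and ovary groups overlap in all 7 panels, and the highest XXF point for Gabbr2 is replicate 5 at 297.7 CPM.

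The gonad estimates moved with the genomic span of a gene, from first to last exon. Over 12948 genes with a span, the Spearman correlation of the gonad log2 fold change with span was 0.37, against -0.11 for the sex chromosome effect. These are correlations across genes, which share libraries and are not independent replicates. The median gonad estimate was -0.05 for 3114 genes of up to 10 kb and 0.08 for 466 genes over 300 kb. In the set, the 6 genes over 300 kb (Erbb4, Gabrg3, Reln, Gphn, Gabrb1 and Gabbr2) all had positive estimates, with a median of 0.17. The 11 genes of up to 30 kb had 4 positive and 7 negative estimates, with a median of -0.04, and the 13 between had 5 and 8, with a median of -0.01. Of the 7 genes named above, Gabrb1, Erbb4 and Gabbr2 are over 300 kb, and Cnr1, Pvalb, Gabrd and Vip are under 30 kb.

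A score of each library puts the same pattern on single libraries. For each gene, its log2 level was taken less its mean over all libraries. The score is the median of these values for genes over 300 kb less that for genes up to 10 kb, with the 30 genes left out. The score was built after the pattern with span was seen, so its group values are a description. It averaged -0.05 ± 0.106 (SD) in XXF, -0.09 ± 0.0955 in XYF, 0.07 ± 0.102 in XXM and 0.07 ± 0.0894 in XYM. Averaged over sex chromosomes, testes exceeded ovaries by 0.135, and the groups overlapped. The total of estimated reads was also higher with testes, by 6130000 per library (p = 0.0419, exact 2-sided permutation test with gonad labels exchanged within XX and within XY, 426888 assignments). With the score as a covariate, also chosen after seeing the data, the gonad estimates were 0.07 for Gabrb1, -0.0046 for Erbb4, 0.04 for Gabbr2, 0.05 for Cnr1, -0.09 for Pvalb, -0.0028 for Gabrd and -0.04 for Vip on the log2 scale. Their unadjusted p ran from 0.412 to 0.972 (adjusted p 0.999 for each, edgeR), and the genes called over the whole table fell from 22 to 2. Since the score itself differs by gonad, the covariate takes up part of any gonad difference, and a cause shared by the score and these genes was not tested.

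**Figure D5:**
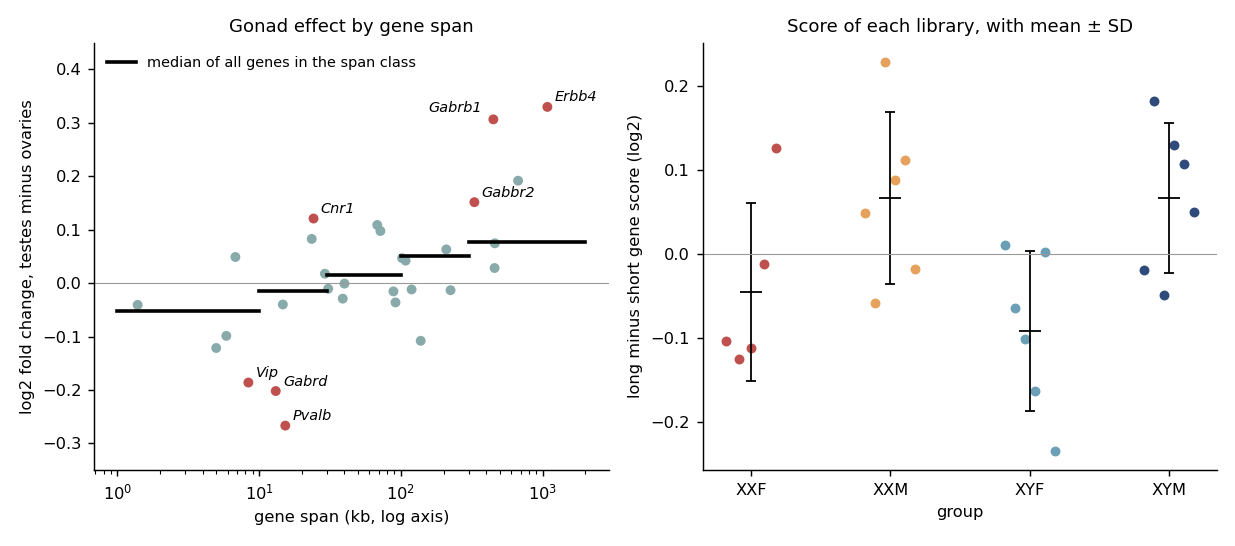
Left, gonad log2 fold change (testes minus ovaries) of each of the 30 genes against genomic span in kb on a log axis. Black bars are medians of all genes in a span class, from -0.05 up to 10 kb to 0.08 over 300 kb, and red points are the 7 genes with an unadjusted p under 0.05. Right, the score of long less short genes (log2) in each library, with mean ± SD by group: the testis groups average 0.07 and the ovary groups -0.05 and -0.09.

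The interaction asked whether the gonad difference depends on the sex chromosomes. None of the 30 genes passed, and 0% of all genes did in edgeR; 444 genes (3.23%) had an unadjusted p under 0.05, none of them in the set, and DESeq2 and limma voom called 0 genes as well. The smallest p belonged to the chloride extruder Slc12a5, at 0.14 ± 0.0760 on the log2 scale (edgeR, unadjusted p = 0.0754, adjusted p = 0.999). It was highest in XXF, at 613 ± 25.6 CPM (SD, n = 5), and 572 ± 32.3 in XXM, 558 ± 41.6 in XYF and 574 ± 30.2 CPM in XYM. Calb2 followed at -0.41 ± 0.230 (unadjusted p = 0.0884) and Gabrg3 at -0.32 ± 0.238 (unadjusted p = 0.186), both with adjusted p 0.999 in edgeR. The Calb2 value was -0.25 without XYF replicate 6 and -0.21 with quality weights, and the Gabrg3 value was -0.10 without the 5 animals of lowest number. Intervals were wider here, and 24 of 30 lay within 0.5 of zero.

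Between single groups no gene of the set passed in any of 6 comparisons. The share of all genes called was 0.291% for XYF minus XXF, 0.116% for XYM minus XXM, 0.225% for XYM minus XYF, 0.131% for XYM minus XXF and 0.501% for XXM minus XYF. For XXM minus XXF it was 0%, with 1061 genes at an unadjusted p under 0.05 and 1 gene called by DESeq2. These comparisons share groups and are not independent. XYM minus XXF sets mice with the usual pairing of chromosomes and gonads against each other, and there Vip had the smallest p, at -0.34 ± 0.114 (log2; edgeR, adjusted p = 0.298). Vip stood at 24.1, 20.6, 28.4, 23.5 and 18.99 CPM in XXF, so that 3 of 5 were above every XYM animal. In XYF minus XXF the first gene was Calb2 at 0.46 ± 0.169 (adjusted p = 0.709, edgeR), which was 0.30 without XYF replicate 6 and 0.21 with quality weights. In XXM minus XXF it was Gabrd at -0.25 ± 0.119 (adjusted p = 0.642, edgeR), which was -0.15 without the 5 animals of lowest number. Gabrb1 came first in XYM minus XYF at 0.41 ± 0.132 (adjusted p = 0.388, edgeR) and in XXM minus XYF at 0.40 ± 0.131 (adjusted p = 0.334, edgeR), comparisons that share the XYF animals. Without XYF replicate 4 the Gabrb1 values were 0.32 and 0.31. With the score of long less short genes as a covariate they were 0.12 and 0.11. In the same fit Gabrd was at -0.08 in XXM minus XXF and Vip at -0.22 in XYM minus XXF.

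For no gene of the set did the libraries of compared groups separate without overlap. The share of all genes that did so was 0.102% between XY and XX libraries and 0.00726% between testis and ovary libraries. Between single groups it was 0.821% for XYF against XXF, 0.37% for XYM against XXM, 0.763% for XXM against XXF, 0.341% for XYM against XYF, 1.53% for XYM against XXF and 0.734% for XXM against XYF.

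The wider pathway was followed with 96 further genes in 6 lists, of which 84 were in the table. They covered other GABA-A subunits, other GABA enzymes and transporters, receptor trafficking and scaffold proteins, GABA-B partners and effectors, chloride regulation and other interneuron genes. None passed adjustment in the sex chromosome, gonad or interaction contrasts. At an unadjusted p of 0.05, 3 were higher and 6 lower in XY than XX, where 3.37% and 3.41% of all genes were. At the same p 12 were higher and 6 lower with testes than ovaries, where 6.49% and 7.14% of all genes were.

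By p, the first in the sex chromosome contrast was Syt2, the fast calcium sensor of parvalbumin terminals, at -0.45 ± 0.112 on the log2 scale (edgeR, adjusted p = 0.111). Nsf, the ATPase that recycles fusion complexes, differed by 0.13 (adjusted p = 0.261, edgeR). Satb1, a transcription factor of interneuron development, differed by -0.17 (adjusted p = 0.443, edgeR). In the gonad contrast Kcnj6 and Kcnj3, subunits of potassium channels opened by GABA-B receptors, differed by 0.28 (adjusted p = 0.141) and 0.14 (adjusted p = 0.185), in edgeR. Kcnj9, a further such subunit on the list, differed the other way, by -0.12 (adjusted p = 0.272, edgeR). Nos1, the neuronal nitric oxide synthase, differed by 0.27 (adjusted p = 0.209, edgeR) and Adarb2, a marker of interneurons from the caudal ganglionic eminence, by 0.14 (adjusted p = 0.239, edgeR). The signs of these gonad estimates ran with genomic span, as described above for all genes. Adarb2 spans over 300 kb, Kcnj9 under 10 kb, and Kcnj6, Kcnj3 and Nos1 lie between. The part of span in these estimates was not tested. In the interaction Stk39, a kinase that activates Slc12a2, was at -0.41, the chloride channel Clcn2 at 0.23, the fast potassium channel Kcnc1 at 0.16 and the anion exchanger Slc4a3 at 0.23, each with adjusted p 0.999 in edgeR. Stk39 was highest in XXM replicate 3 (140.9 CPM, median of all libraries 80.3), a library with high choroid plexus markers. All 10 detected choroid plexus markers had negative interaction estimates (median -1.98), and their part in the Stk39 estimate was not tested.

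Other cell types moved with the groups in part. Of 10 interferon response genes, 8 were called higher in XY and 6 lower with testes (edgeR), the XYF libraries being highest. All 10 detected choroid plexus markers were lower in XY and higher with testes by estimate, none of them called. Both averages rest on the XXM libraries. The median of the summed markers was 3705 CPM in XXM, against 383.3 in XXF, 342.9 in XYF and 403.6 CPM in XYM. Of 10 microglia markers, 8 had negative gonad estimates (median -0.17 on the log2 scale), and 5 were lower with testes at an unadjusted p under 0.05, where 7.14% of all genes were. In the interaction 3 of the 10 were lower at that p, where 3.23% of all genes passed in either direction. None of the microglia markers was called. With the choroid plexus level as a covariate the gonad estimates kept their sign, at 0.30 for Gabrb1, 0.31 for Erbb4, 0.16 for Gabbr2, 0.14 for Cnr1, -0.20 for Pvalb, -0.17 for Gabrd and -0.15 for Vip. The part of microglia and of the interferon response in the estimates of the 30 genes was not tested.

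How genes of the set varied together between animals was measured for 6 pairs over the 23 libraries, on log2 CPM with group means removed and p adjusted over the 6 pairs. Gad1 and Gad2 had r = 0.84 and rho = 0.87. The adjusted permutation p was 6e-05 for each, from the smallest raw p that 100000 resamples can give, 1e-05. Without the 2 libraries farthest from the Gad1 median r was 0.84. Neither step removes the break by animal number. The 5 animals of lowest number had a Gad1 median of 384.0 CPM against 431.7 CPM in the other 18. Their Gad2 level was 154.7 to 180.9 CPM against 177.5 to 226.2 CPM. The permutation treats all libraries as exchangeable, which this break limits, and the part of these animals in r was not tested. Sst and Npy, which share many interneurons, had r = 0.51 (adjusted permutation p = 0.0403) and rho = 0.49 (0.0545). Without 2 libraries r was 0.46 with an adjusted p of 0.108, so that r changed little but no longer passed.

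The other pairs did not pass. Gabra4 and Gabrd had r = 0.26 (adjusted permutation p = 0.336) and rho = 0.24 (0.315). Pvalb and Lhx6 had r = 0.22 (adjusted permutation p = 0.37) and rho = 0.25 (0.315). Against the mean of thalamus markers, which would carry tissue from beyond the hippocampus, Calb2 had r = 0.31 (adjusted permutation p = 0.288) and rho = 0.30 (0.315). Slc6a11 had r = -0.16 (adjusted permutation p = 0.463) and rho = -0.12 (0.589) against the same markers. Without the 2 libraries farthest from the median of the first gene, r was 0.11 for Gabra4 and Gabrd, 0.20 for Pvalb and Lhx6, 0.22 for Calb2 and 0.05 for Slc6a11.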

How the data were processed

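RNA was measured in 23 hippocampus libraries. The protocol names an mRNA kit and depletion of ribosomal RNA together, and does not state how these were combined. Per the file headers, the authors deposited estimated counts per RefSeq gene (raw, not whole numbers) and log2 normalized values. The authors kept genes with a raw value of at least 20 in all libraries (100%) of at least 1 group, per the file headers. Per the submitters' processing notes the build was mm10 and DESeq was used. The sources used here name no aligner, counter or strand setting. Near-identical transcripts could share reads.

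Estimated counts were rounded and fitted with edgeR 4.0.16 (R 4.3.3) by the quasi-likelihood test with TMM factors over all 23 libraries, with a mean per group. The low-count filter of edgeR removed none of 13766 genes, and p-values were adjusted by Benjamini-Hochberg over all of them, with calls at 0.05. CPM is the count scaled to a library of 1000000, after multiplying its total by the TMM factor, and log2 levels used a prior count of 2. Standard errors are approximate, from the fold change and its F statistic, and intervals cover 95%. Exon, coding and genomic lengths came from GENCODE vM21 on GRCm38, not from the authors' gene models, and coordinates of genes from the deposited table. Alternatives used DESeq2 1.42.0 and limma 3.58.1, including limma on the deposited log2 values. The fit recovered changed genes when tested on simulated data for the sex chromosome and gonad contrasts. The planted changes were larger than any estimate of the 30 genes in these contrasts. The simulated libraries also held no differences in choroid plexus, gene span or animal number. The simulation therefore cannot say how often changes of the size estimated here would be called.

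The 30 genes and all lists were chosen with earlier results of these data known. Fold changes are given for genes with an unadjusted p under 0.05 in the sex chromosome, gonad and interaction contrasts (the 3 smallest p where fewer had one), for the smallest p in each pairwise comparison, and for up to 4 other pathway genes per contrast, some of which are not reported here. Kcnj9, Gabra3, Gad1, Sst, Gphn, Gabbr1, Gabra4, Gabra2, Nnt, Wdfy1 and Entpd4 were named outside that rule, the last 4 after their values were seen. The last 3 came from a scan of all genes for those that follow Gabra2. The Gad2 and Abat values at the break by animal number were also picked after they were seen. Promoter letters were searched after earlier results were known, and other motif searches were not kept. Of the listed genes, Gabra6, Gabre, Gabrq, Gabrr1, Gabrr2, Slc6a12, Insyn1, Insyn2a, Wnk3, Dlx6os1, Lamp5 and Chodl were not analysed here. Each library came from 1 animal number, so p-values measure the spread between animals.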

Additional observations from a re-analysis of the deposited data

Results flagged for a closer look

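Of 120 combinations of a gene of the set and a group, 9 held a library far from the rest of its group by Dixon's criterion, where chance gives about 1 in 20. In XYM replicate 2, Gabrb1 stood at 48.7 CPM against 37.3 in the nearest XYM library. In XXM replicate 3, Gabrb2 stood at 350.2 CPM (nearest 293.0) and Nlgn2 at 200.7 CPM (nearest 240.8). Gabrd in XYF replicate 6 stood at 37.8 CPM (nearest 29.7). Slc12a2 stood at 151.5 CPM in XYF replicate 5 (nearest 104.0) and at 141.8 CPM in XYM replicate 1 (nearest 104.7), the libraries with the highest choroid plexus markers of their groups. Cck in XYM replicate 3 stood at 149.8 CPM (nearest 126.9), Reln in XXF replicate 3 at 126.3 CPM (nearest 91.5) and Lhx6 in XXM replicate 6 at 25.9 CPM (nearest 23.2).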

How the results depend on the processing

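The absence of calls among the 30 genes held in every setting run but 1, Gabbr2 without XXF replicate 5 in the gonad contrast (0.21, adjusted p 0.0482, edgeR). Counts of all genes called moved more. For the sex chromosomes they were 39 in edgeR, 60 in DESeq2, 68 in limma with quality weights and 63 with the choroid plexus covariate. For the gonads they were 22, 98, 76 and 44 in the same order, and 2 with the score of long less short genes. Without the 5 animals of lowest number the interaction gave 3 and XYM minus XYF gave 51. XYM minus XYF gave 31 in edgeR, 47 in DESeq2, 8 with the score and 15 from its own groups alone. XYM minus XXF gave 18 in edgeR, 54 in DESeq2 and 123 with quality weights. XXM minus XYF gave 69 in edgeR and 39 with the score, XYM minus XXM gave 16 in edgeR and 10 with a minimum of 1 CPM, and XXM minus XXF gave 1 in DESeq2.

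With 1 library left out, the counts ran from 34 to 48 for the sex chromosomes, 17 to 85 for the gonads, 0 to 3 for the interaction, 32 to 51 for XYF minus XXF, 15 to 17 for XYM minus XXM, 19 to 50 for XYM minus XYF, 12 to 36 for XYM minus XXF and 53 to 83 for XXM minus XYF. Genes of the set called ran from 0 to 1 for the gonads. The gonad count was 85 without XXF replicate 5, 49 without XYM replicate 1, 42 without XYF replicate 1 and 34 without XYF replicate 5. XYM minus XYF gave 50 without XYM replicate 1, 20 without XYF replicate 2 or XYM replicate 2, and 19 without XYM replicate 4, 5 or 6. XYM minus XXF gave 36 without XYM replicate 6. The interaction gave 3 without XYM replicate 1 and 1 without XYF replicate 1.

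Among genes named by the rule, the fold changes that turned were Erbb4 for the gonads (-0.0046 with the score) and Slc12a2 for XYM minus XXM (0.0504 with the choroid plexus covariate). The 5 animals were chosen by their Gabra2 values. Without them Gabra2 also turned for the gonads (-0.11 to 0.13) and the sex chromosomes (0.07 to -0.05). Gad1 turned for the sex chromosomes (-0.0175 to 0.00198). Sst and Npy had r = 0.463 both without 2 libraries and with group means kept, no longer past the threshold, and Slc6a11 against thalamus markers turned to 0.0515 without 2 libraries. The causes were not tested. All 120 group means stayed within 1 SD when scaled by library total alone. The score covariate and the omission of 5 animals were chosen after seeing the data. No paired analysis was possible because the labels give no replicate numbers.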
